A study of Rattus norvegicus with 24 samples.

Results

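The comparison described here set every rat brain sample exposed to MDPV (methylenedioxypyrovalerone), whether once or repeatedly, against the saline controls, and asked which transcripts of the dorsal striatum differed in both exposures. Its members were chosen by the treatment group in the sample labels: 8 acute and 8 chronic arrays, pooled to 16, against 8 saline arrays, which together are all 24 arrays of the series. All animals were male Long Evans rats of 80 to 90 days, with no genetic modification named in the labels, and all had an intraperitoneal injection on 5 days. Saline rats had 5 saline injections, acute rats 4 saline injections and then 1 of MDPV, and chronic rats 5 of MDPV, at 1 mg/kg each time. Left dorsal striatum was dissected by hand from frozen brains taken 24 h after the last injection. The design text gives 6 per group, while each group has 4 arrays with titles of their own and 4 that share 2 letters, so arrays of a letter were averaged to give 6 units per group, 12 with MDPV and 6 with saline. The files do not show that the arrays of a letter came from 1 rat. The spread between units may therefore be partly technical, and the p-values measure only that spread.

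MDPV is a synthetic cathinone that keeps dopamine and noradrenaline outside the cell by blocking their transporters. In the striatum, dopamine acts on projection neurons of the direct pathway, which carry the D1 receptor, and of the indirect pathway, which carry the D2 receptor. Psychostimulants are known to switch on immediate early genes in these neurons within minutes to hours and to alter the peptides dynorphin, substance P and enkephalin over longer times.

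All values are log2 signals relative to the 75th percentile of the array's own non-control spots, and a difference is MDPV minus saline unless another pair is named. The share of spots well above background ran from 50.7% to 71.3% over the arrays, no spot was saturated, and signals had a median of 6.45 to 10.4 times their local background. Slides 1 and 2 each carried 3 saline, 2 acute and 3 chronic arrays, and slide 3 carried 2 saline, 4 acute and 2 chronic arrays. The main axis of variation (24.5% of the variance over arrays) had 1.66% of its spread between exposed and saline arrays and 10.2% between slides. Saline replicate 4 stood apart. Its mean level of the 18 markers shared by projection neurons was 1.16, against 1.69 to 2.71 on the other saline arrays, and its mean level of 11 hypothalamic peptide markers was -1.18, against -4.21 to -2.96. The lowest mean levels of cortical excitatory neuron markers were on saline replicates 5 (-4.61) and 4 (-4.25) and chronic replicate 8 (-4.37). Values without saline replicate 4 are given for part of the results. Leaving it out does not remove the other arrays named here.

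No gene was distinguishable between exposed and saline rats at this number of arrays. Of 20738 genes tested, 0 passed limma's Benjamini-Hochberg adjusted p of 0.05 (0% called, smallest adjusted p = 1.00), and at an unadjusted p under 0.05 there were 433 (2.09%), of which 193 (0.931%) were higher and 240 (1.16%) lower. That split turned in some other settings. It was 244 higher and 201 lower (2.15% in all) in the same fit on the authors' deposited values. After normexp background correction and quantile normalization it was 582 and 420 (4.83%). With the scaling unchanged it was 164 and 142 (1.48%) with slide as a block, and 185 and 174 (1.73%) without saline replicate 4. It stayed towards lower, at 177 and 226 (1.94%), with title series as a block. Evenly spread p-values would put 5% of genes under that threshold. The 12 MDPV and 6 saline units were fully separated for 0 genes (0%). The median difference over all genes was 0.01 and 54.3% of genes were above 0.

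Each exposure alone also gave no gene past the threshold. Both were set against the same saline arrays. Between acute and saline rats 0 genes passed (0%) and 334 (1.61%) had an unadjusted p under 0.05. Between chronic and saline rats 0 passed (0%, smallest adjusted p = 0.707) and 592 (2.85%) had an unadjusted p under 0.05. The exposures also did not differ detectably from each other, with 0 genes past the threshold between chronic and acute rats (0%, smallest adjusted p = 0.960) and 510 (2.46%) at an unadjusted p under 0.05.

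The intervals show what the data could have missed. The median SE of a difference was 0.12 on the log2 scale. For 82.3% of genes the 95% interval, not adjusted for the number of genes, lay within a 1.5-fold change in either direction, and for 96.6% within a 2-fold change. The measured difference was beyond 1.5-fold for 171 genes that were lower and 54 that were higher in exposed rats. The number of arrays limits this precision.

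The genes closest to a difference in the higher direction included Edn1 and Ccn2. Edn1 encodes the vasoconstrictor peptide endothelin, and Ccn2 a secreted matricellular protein also known as connective tissue growth factor. Stretches upstream of both starts are shown. These genes rank 1 and 3 by p among the higher genes with a symbol and had similar differences in both exposures. The stretches are from RefSeq's promoter table in the build GRCr8, and both genes are on the minus strand. Piwil2, which ranks 2, has no entry there. Capitals mark GGAATG, the core letters of the site that TEAD factors bind, and TATAAA, the letters of the TATA box motif. The stretch of Ccn2 is chr1:22624637-22624786 and runs from 172 to 23 bases before the start. That of Edn1 is chr17:22666773-22666877 and runs from 190 to 86 bases before it. The TATAAA of Edn1 thus lies more than 86 bases before the start given, and whether it acts as a TATA box was not tested.
Ccn2: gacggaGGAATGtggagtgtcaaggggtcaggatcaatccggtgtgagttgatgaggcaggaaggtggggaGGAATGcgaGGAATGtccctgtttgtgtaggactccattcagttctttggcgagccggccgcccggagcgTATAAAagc
Edn1: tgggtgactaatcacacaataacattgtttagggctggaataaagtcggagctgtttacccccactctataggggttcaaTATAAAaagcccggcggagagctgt
The Ccn2 window of 300 bases (250 before the start and 50 after) held GGAATG 3 times and that of Edn1 0 times, read on both strands. Of 33469 promoters in the table, 14.2% held GGAATG and 14.2% TATAAA. Of the 24 leading genes, 12 higher and 12 lower by smallest p, 16 had an entry. GGAATG was in 4 of these, Ccn2 and the lower genes Ccdc190, Nxnl2 and Cenpn. TATAAA was in 4, the higher genes Edn1, Ccn2 and Wipf2 and the lower gene Cfap126. These motifs were picked after the genes were known, and a match describes the letters only.

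Edn1, measured by a probe at chromosome 17, 28304023 to 28304082 in the files' build rn4, ran from -6.09 (median -5.65) to -5.21 in the saline units. In the MDPV units it ran from -5.47 (median -5.14) to -4.67. The groups overlapped, with 8 of 12 MDPV units above the highest saline unit and all 12 above the saline median. Its difference was 0.51 (SE 0.14, 1.43-fold, unadjusted p = 0.00172 and adjusted p = 1.00 by limma), with 0.56 in acute and 0.47 in chronic rats. Edn1 was dim, well above background on 4 of 8 saline, 6 of 8 acute and 7 of 8 chronic arrays. Within slides 1, 2 and 3 the difference was 0.83, 0.47 and 0.22. After normexp background correction with an offset of 50, which compresses differences between dim spots, and quantile normalization it was 0.34.

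Ccn2 was well above background on all 24 arrays (probe at chromosome 1, 21327574 to 21327633). It ran from -3.17 (median -2.34) to -1.76 in saline units and from -2.24 (median -1.84) to -1.57 in MDPV units. Saline replicate 4 was the lowest unit. The unit of saline replicates 1 and 8 was the only saline unit within the range of the exposed ones. Without it the groups did not overlap, as for 1 of 20738 genes, but by a narrow margin. Saline replicate 7 was then at -2.26 and the lowest exposed unit at -2.24. The difference was 0.53 (SE 0.15, 1.45-fold, unadjusted p = 0.00287), with 0.56 in acute and 0.51 in chronic rats, and 0.38 without saline replicate 4. It was not uniform over slides, at 0.28, 0.91 and -0.02.

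Rbfox3 encodes NeuN, the neuronal splicing factor used as a marker of mature neurons, and was well above background on all 24 arrays (chromosome 10, 108491839 to 108491898). It ran from 3.28 (median 3.69) to 3.92 in saline units and from 3.79 (median 3.92) to 4.07 in MDPV units. The difference was 0.25 (SE 0.08, unadjusted p = 0.00507) and 0.17 without saline replicate 4, the lowest unit here too. A further probe of the gene gave 0.21 (SE 0.16). All 12 MDPV units lay above the saline median.

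Genes of the germline small RNA pathway stood in the same ranking. Piwil2, a PIWI protein that binds piRNAs in the testis, had a difference of 0.46 (SE 0.13), with 0.41 in acute and 0.51 in chronic rats, and 0.48, 0.76 and -0.13 within slides. Henmt1, the methyltransferase that modifies the 3′ ends of piRNAs, had 0.57 (SE 0.17), with 0.31 in acute and 0.82 in chronic rats. It was well above background on 1 of 8 saline, 4 of 8 acute and 5 of 8 chronic arrays, so it entered the test only through the exposed groups, and its saline level lay mostly at the detection limit. After normexp its difference was 0.21. They are named because they rank there, and no list of this pathway was tested.

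The rest of the higher genes had differences between 0.22 (Lnx2) and 0.48 (Ccdc116). Apaf1, the scaffold of the apoptosome, had 0.32 (SE 0.10), and a further probe of it gave 0.01 (SE 0.21). Wipf2, which acts on actin through WASP proteins, had 0.38 (SE 0.12). The others were Zswim9 0.25, Cd7, a surface protein of lymphocytes, 0.34, Lrp12, a member of the LDL receptor family, 0.29, Ccdc116 0.48 and the ubiquitin ligase Lnx2 0.22. The difference of Cd7 was 0.05 after normexp, where it no longer had an unadjusted p under 0.05. Over the 12 genes the acute difference ran from 0.20 to 0.56 and the chronic difference from 0.22 to 0.82. Of the 12, 4 were well above background on all 24 arrays. On slide 3 the sign held for 5 of the 12, and it held within both title series for all 12.

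**Figure D1:**
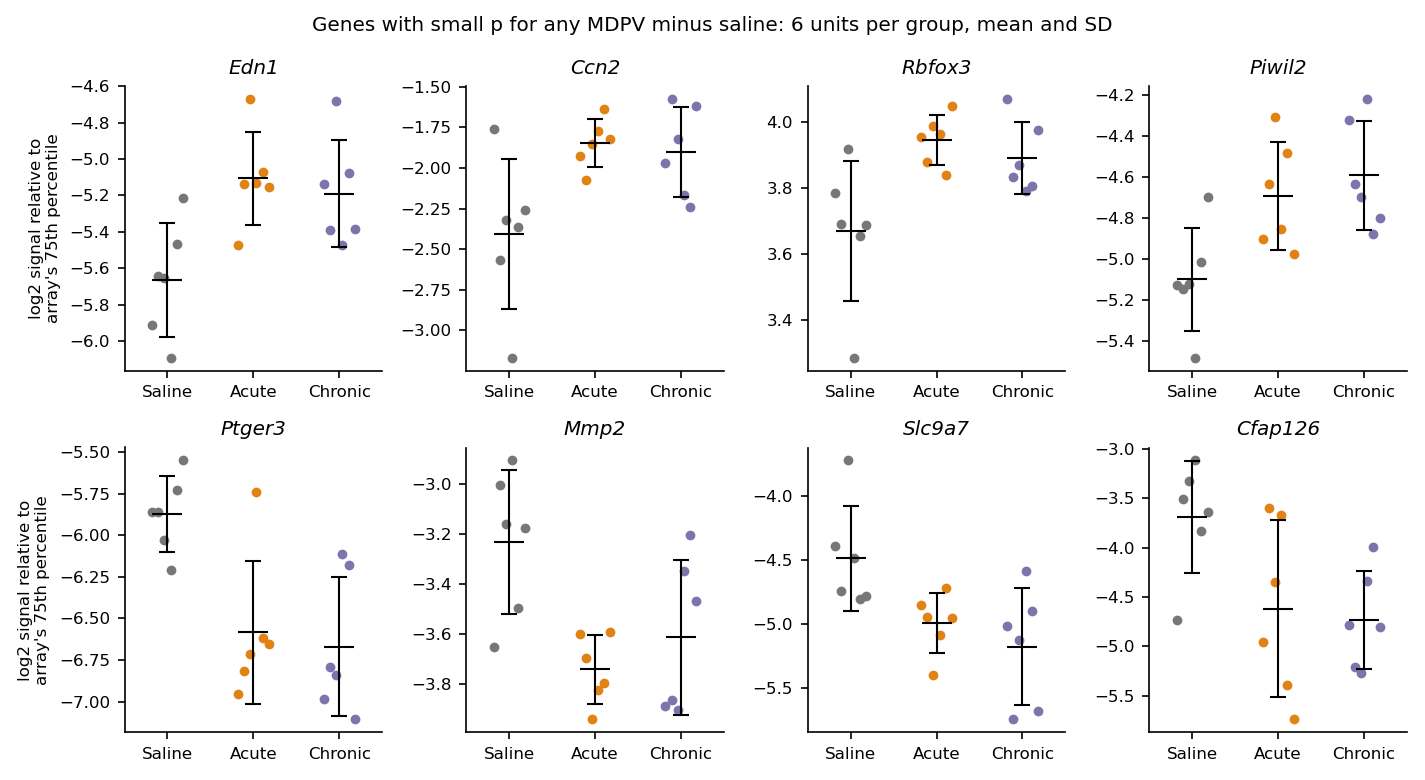
Log2 signal relative to the array's 75th percentile (y axis) of 8 leading genes in the saline, acute and chronic groups (x axis), with 1 point per unit and the mean and SD over 6 units. The genes were chosen by a small p for this difference, which sets its side. Ranges overlap in every panel, with 8 of 12 exposed units above the highest saline unit for Edn1 and 9 of 12 below the lowest for Ptger3.

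The lower genes had larger differences and were mostly dim. Ptger3, the EP3 receptor for prostaglandin E, led them (chromosome 2, 255759824 to 255759883). It ran from -6.21 (median -5.86) to -5.55 in saline units and from -7.11 (median -6.75) to -5.74 in MDPV units, with 9 of 12 MDPV units below the lowest saline unit. The acute unit of replicates 4 and 6, at -5.74, was within the saline range. The difference was -0.75 (SE 0.18, 1.69-fold, unadjusted p = 0.000481 and adjusted p = 1.00 by limma), with -0.71 in acute and -0.80 in chronic rats, and -1.29, -0.46 and -0.58 within slides. Ptger3 was well above background on 3 of 8 saline, 5 of 8 acute and 2 of 8 chronic arrays. After normexp its difference was -0.11 (unadjusted p = 0.240 by limma).

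Slc9a7, a sodium/proton exchanger of the trans-Golgi network, had the most even difference over slides, at -0.57, -0.69 and -0.62 (chromosome X, 13808871 to 13808930). It ran from -4.81 (median -4.61) to -3.72 in saline units and from -5.74 (median -4.98) to -4.59 in MDPV units. Of the 12 MDPV units 10 lay below the lowest saline unit. The difference was -0.60 (SE 0.18, 1.51-fold, unadjusted p = 0.00383), with -0.50 in acute and -0.69 in chronic rats, and -0.60 without saline replicate 4.

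Mmp2, a metalloproteinase that degrades gelatin and collagen IV, was well above background on all 24 arrays. It ran from -3.65 (median -3.17) to -2.91 in saline units and from -3.94 (median -3.74) to -3.21 in MDPV units. The 6 acute units, between -3.94 and -3.59, lay below every saline unit other than that of replicates 1 and 8 (-3.65). The difference was -0.44 (SE 0.12), with -0.51 in acute and -0.38 in chronic rats, but slides gave -0.38, -0.91 and 0.21, and a further probe gave 0.09 (SE 0.26). The probes of Mmp2 therefore disagreed in sign.

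Exo1, an exonuclease of DNA mismatch repair, had -0.89 (SE 0.23), with -0.82, -0.42 and -1.08 within slides, and was well above background on 4 of 8 saline, 4 of 8 acute and 2 of 8 chronic arrays. Ism1, a secreted inhibitor of angiogenesis, had -0.39 (SE 0.12), Nxnl2, a thioredoxin-like gene known in photoreceptors, -0.84 (SE 0.26), Fam19a3, a secreted chemokine-like protein, -0.32 (SE 0.10), and Cenpn, a centromere protein, -0.31 (SE 0.10). Nxnl2 was well above background on 4 of 8 saline, 3 of 8 acute and 1 of 8 chronic arrays, so it entered the test only through saline, and after normexp its difference was -0.26. That of Fam19a3 was then -0.02 and that of Exo1 -0.44. Over all 12 lower genes the acute difference ran from -1.02 to -0.25 and the chronic difference from -1.70 to -0.17. Of the 12, 10 kept their sign on all slides, and 1 was well above background on all 24 arrays.

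Among the 24 leading genes, limma gave an unadjusted p under 0.05 between chronic and acute rats for Henmt1, Ism1 and Cenpn, beside 2.46% of all genes. Henmt1 and Ism1 were further from saline in chronic rats and Cenpn in acute rats. None passed after adjustment over all genes. With slide as a block over 24 arrays, 11 of the 12 higher and 11 of the 12 lower genes had an unadjusted p under 0.05, beside 1.48% of all genes. The exceptions were Cd7 and Cenpn. With saline replicate 4 also left out it was 8 and 7 of 12 (1.28% of all genes), and after normexp 11 and 8 of 12 (4.83% of all genes). All of these counts reuse the arrays on which the genes were ranked and support nothing beyond that ranking.

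**Figure D2:**
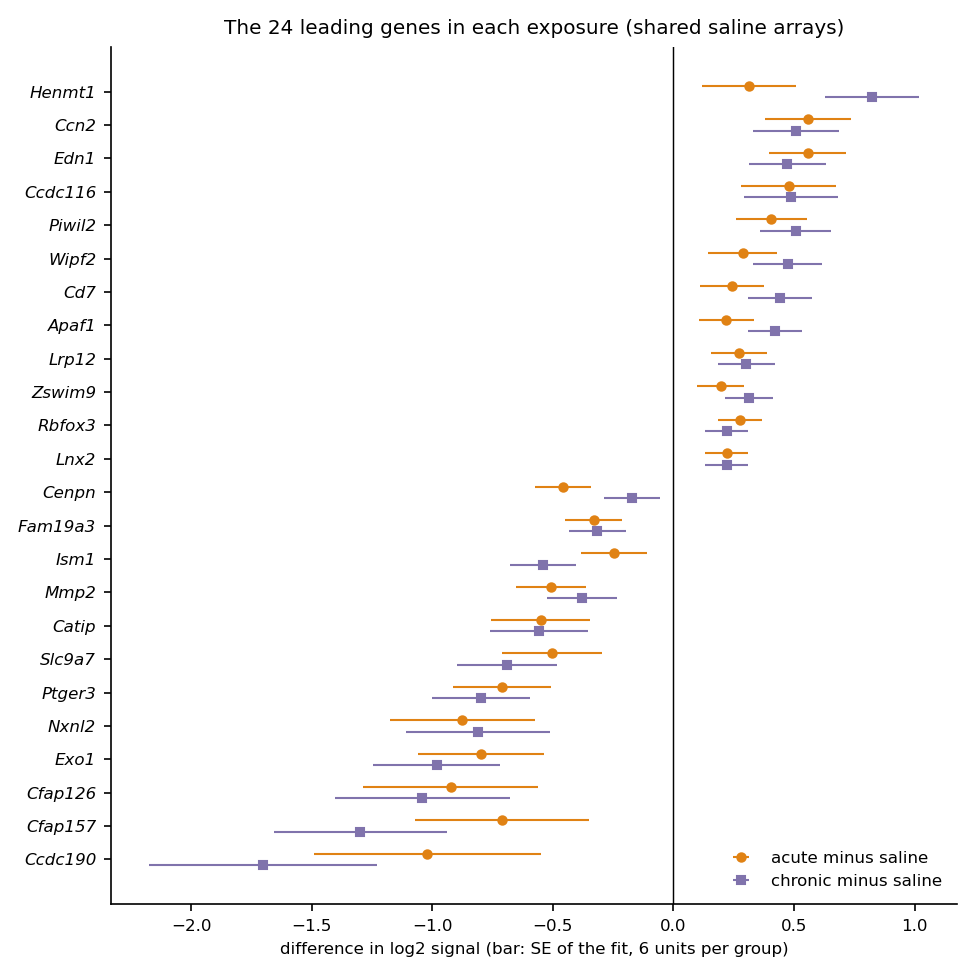
Acute minus saline (circles) and chronic minus saline (squares) differences in log2 signal (x axis) of the 24 leading genes (rows), with the SE of the fit. Both exposures share the saline arrays, and the genes were ranked on the pooled difference, so the side on which both points fall is set by the choice.

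Genes of motile cilia stood among the lower ones. Motile cilia line the ventricles on ependymal cells, whereas neurons carry only non-motile ones. Cfap126, which places basal bodies in multiciliated cells, ran from -4.74 (median -3.57) to -3.12 in saline units and from -5.74 (median -4.80) to -3.59 in MDPV units, with a difference of -0.98 (SE 0.31) that was -1.31 in the arrays titled with a number and -0.34 in those titled with a letter. Cfap157, a ciliary and flagellar protein, was 2.01-fold lower (SE 0.31 on the log2 scale), and Catip, a protein of ciliogenesis, had -0.55 (SE 0.18). After normexp the difference was -0.68 for Cfap126 and -0.19 for Cfap157, and for Catip it was -0.03, with no unadjusted p under 0.05 for the latter pair. The coiled-coil gene Ccdc190 had -1.36 (SE 0.41), with -0.51, -1.83 and -0.57 within slides and -0.49 after normexp.

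The 80 bases before the start of Catip are shown because they hold GTTGCC, part of the X-box that RFX factors, which drive ciliary genes, bind. They are chr9:83395025-83395104 of GRCr8, plus strand, from RefSeq's table, with GTTGCC in capitals.
Catip: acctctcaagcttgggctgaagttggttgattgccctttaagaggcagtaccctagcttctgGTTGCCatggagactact
Of the 33469 promoters 12.2% held these letters on either strand within their 300 bases, and of the 16 leading genes with an entry 3 did, Edn1, Henmt1 and Catip. The motif was looked for after the gene was known.

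Of the ependyma and motile cilia list, 10 of 16 genes were measured. Cfap126 is one of them. In exposed rats 9 were lower and 1 higher, with a median of -0.57, and 3 had an unadjusted p under 0.05, all lower, beside a background of 1.16%. Cfap126, already chosen by this p as a leading gene, is among these 3. A probe could enter the test through any single group, saline included. Dynlrb2, a dynein light chain, had -0.99 (SE 0.35) and Rsph1, a radial spoke protein, -0.59 (SE 0.26). Among the 18 units Cfap126, Dynlrb2 and Rsph1 were all highest in saline replicate 4, so members of this list are not independent either. By array the list's mean level was highest on saline replicate 5 (-2.07) and was -2.61 on saline replicate 4. The mean level of the list ran from -4.49 (median -3.39) to -2.07 on saline, from -4.69 (median -3.42) to -2.52 on acute and from -4.58 (median -4.11) to -2.79 on chronic arrays, so the groups overlapped over nearly their whole range. Its median was -0.46 in acute and -0.73 in chronic rats, and -0.48, -0.81 and 0.12 within slides. Without saline replicate 4 it was -0.35. In tissue homogenate, fewer cells of a type and less RNA per cell cannot be told apart.

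Choroid plexus transcripts were lower in exposed rats as well. The choroid plexus secretes cerebrospinal fluid into the ventricle beside the dissected striatum. Of 16 markers 8 were measured, and all 8 were lower in exposed rats, with a median of -1.40, or -1.01 in acute and -1.40 in chronic rats. The folate receptor Folr1 had -1.93 (SE 0.74), the potassium channel Kcnj13 -1.80 (SE 0.76), the transcription factor Otx2 -0.99 (SE 0.39) and the water channel Aqp1 -0.73 (SE 0.27), and 5 of the 8 had an unadjusted p under 0.05, again beside 1.16%. None passed after adjustment. A probe could enter the test through saline alone. Among the 18 units Folr1, Kcnj13, Otx2 and Aqp1 were all highest in saline replicate 4, so members of the list are not independent. By array, before letters were averaged, the list's mean level was highest on saline replicate 5 (0.57) and chronic replicate 8 (0.56). On saline replicate 4 it was -0.26. Ttr, which encodes the thyroxine carrier transthyretin and is a hallmark of this tissue, had -3.01 (SE 1.84, 95% interval -6.89 to 0.86).

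Choroid plexus levels varied more between arrays of a group than between groups. The mean level ran from -4.90 (median -2.27) to 0.57 on saline, from -4.61 (median -3.17) to -1.80 on acute and from -5.30 (median -4.66) to 0.56 on chronic arrays. The slides disagreed in sign, with medians of -1.45, -2.64 and 1.16. Ttr gave -4.87, -5.53 and 4.37 within slides. Leaving out saline replicate 4 gave a median of -1.05, and slide as a block -1.27. The part of tissue from the ventricle wall in the differences of the cilia genes was not tested.

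**Figure D3:**
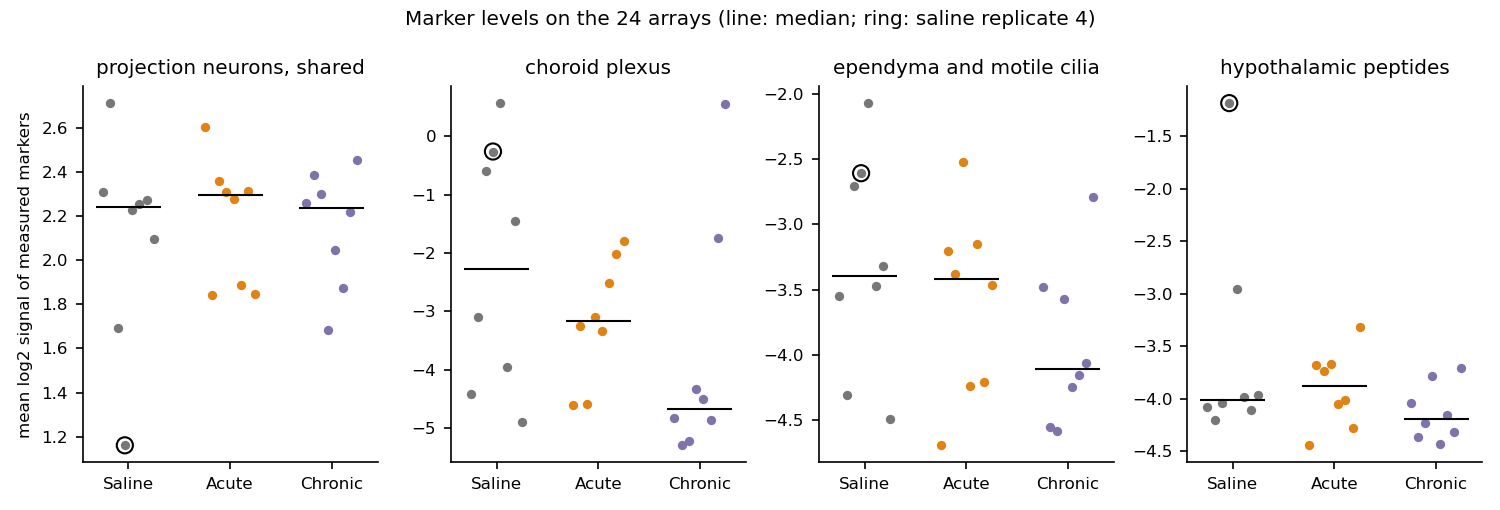
Mean log2 signal of the measured markers (y axis) of 4 lists on each of 24 arrays in the 3 groups (x axis), with the group median as a line and saline replicate 4 ringed. Saline replicate 4 has the lowest projection neuron level (1.16) and the highest hypothalamic level (-1.18), and choroid plexus levels span several log2 units in each group.

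Markers of hypothalamus and of thalamus, septum and pallidum were lower in exposed rats, with medians nearer 0 without saline replicate 4. Of 11 measured hypothalamic markers 10 were lower, with a median of -0.68. Without saline replicate 4 the median was -0.06, and 3 of the 11 were above 0. The peptide gene Gal had -1.28 (SE 0.52) and -0.67 without that array. Pomc, the precursor of melanocortins and beta-endorphin, behaved differently, at -0.29 (SE 0.10, unadjusted p = 0.0105) with all units and -0.28 without saline replicate 4. It ran from -2.53 (median -2.36) to -2.17 in saline units and from -3.02 (median -2.74) to -2.35 in MDPV units, with 9 of 12 exposed units below the lowest saline unit and -0.28, -0.26 and -0.18 within slides. It did not pass after adjustment over all genes.

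Markers of thalamus, septum and pallidum had a median of -0.29 (8 of 10 lower). Without saline replicate 4 it was -0.12, with 2 of the 10 above 0. The kinase Prkcd had -0.54 (SE 0.21) and -0.28 without it. Markers of cortical excitatory neurons were higher, with 10 of 11 above 0 and a median of 0.21, which was 0.03 without that array and 0.08, 1.11 and -0.76 within slides. Slc17a7, which loads glutamate into vesicles in cortical neurons, had 0.43 (SE 0.54).

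Transcripts of the striatal projection neurons themselves were slightly higher in exposed rats, and this too rested on saline replicate 4. Of 18 markers shared by these neurons 17 were above 0, with a median of 0.17, and without that array 9 were above 0, with a median of -0.01. All 9 direct-pathway markers were above 0 (median 0.14, and 0.03 without the array), as were all 9 indirect-pathway markers (0.22 and 0.02). Of 25 measured genes of dopamine and cAMP signalling 22 were above 0, with a median of 0.15, 0.17 in acute and 0.11 in chronic rats, against 11 above 0 and -0.01 without the array. No member of these lists had an unadjusted p under 0.05. With slide as a block the medians were 0.08, 0.06, 0.11 and 0.08 in this order.

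Receptors and signalling genes of these neurons did not differ detectably. Drd1, the D1 receptor, ran from 1.89 (median 2.85) to 3.31 in saline units and from 2.21 (median 2.96) to 3.25 in MDPV units, with a difference of 0.19 (SE 0.17, 95% interval -0.18 to 0.55) and 0.02 without saline replicate 4. Drd2, the D2 receptor, had 0.18 (interval -0.23 to 0.60), and the adenosine receptor Adora2a 0.22 (interval -0.21 to 0.64). Ppp1r1b, the phosphatase inhibitor DARPP-32, had 0.19 (interval -0.27 to 0.65). All of these intervals included 0. Without that array Drd2, Adora2a and Ppp1r1b turned sign, to -0.03, -0.01 and -0.08.

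The opioid and tachykinin precursors did not differ detectably. Penk, the enkephalin precursor, had a mean of 3.78 ± 0.55 (SD, n = 6) in saline units, 3.99 ± 0.19 after acute and 4.02 ± 0.15 after chronic dosing. Its difference was 0.23 (SE 0.16), and 0.05 without saline replicate 4. Pdyn, the dynorphin precursor, had 0.13 (SE 0.18), with 0.33 in acute and -0.07 in chronic rats. Tac1, the substance P precursor, had 0.14 (SE 0.18) and -0.07 without that array, and Cartpt, the CART peptide precursor, -0.05 (SE 0.58). Of the 18 neuropeptide and opioid receptor genes 7 were above 0, with a median of -0.05.

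Immediate early genes did not differ detectably 24 h after the last injection. Of 21 measured members 14 were above 0 and 0 had an unadjusted p under 0.05. Their median was 0.07, and -0.03 without saline replicate 4. Fos ran from -5.03 (median -4.64) to -4.24 in saline units and from -5.50 (median -4.89) to -3.77 in MDPV units, with 2 exposed units above and 5 below the saline range and a difference of -0.14 (SE 0.25, 95% interval -0.66 to 0.38). Fosb had 0.17 (SE 0.20), Junb 0.07 (SE 0.22), Egr1 0.04 (SE 0.22), the synaptic gene Arc 0.19 (SE 0.26) and the nuclear receptor Nr4a1 0.19 (SE 0.21). Without saline replicate 4 Fosb had -0.03, Junb -0.07, Egr1 -0.20 and Nr4a1 0.00, and Arc also turned below 0. Npas4 was well above background on at most 8 of 24 arrays and Slc6a3, the dopamine transporter, on at most 4, and neither was tested.

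Genes of the ERK feedback list had 17 of 23 members above 0 and a median of 0.10 (0.02 without saline replicate 4). Dusp1, a phosphatase that switches off MAP kinases, had 0.52 (SE 0.24, unadjusted p = 0.0491), with 0.41 in acute and 0.63 in chronic rats and 0.39 without that array. It was the only member with an unadjusted p under 0.05, beside 0.931% of all genes. Its difference was 0.36 with slide as a block and 0.02 after normexp, and in none of these 3 settings was its unadjusted p under 0.05. Of the clock genes 15 of 20 were above 0 (median 0.04). Clock, a core activator of the circadian loop, had 0.46 (SE 0.19, unadjusted p = 0.0299 by limma), with 0.19 after normexp. It was well above background on 1 of 8 saline, 5 of 8 acute and 5 of 8 chronic arrays. It therefore entered the test only through the exposed groups, where it was higher. Its highest unit was chronic replicate 1 at -4.93. Per1 had 0.02 (SE 0.13) and Per2 0.08 (SE 0.10).

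The other genes given whatever their values were also within error. Fkbp5, a cochaperone induced through the glucocorticoid receptor, had the smallest p of the 24 measured (0.22, SE 0.12, unadjusted p = 0.0907) and 0.09 without saline replicate 4, the lowest unit at -0.80. Sgk1, a glucocorticoid-induced kinase, had -0.23 (SE 0.15), the growth factor Bdnf 0.24 (SE 0.37), the dopamine synthesis enzyme Th -0.20 (SE 0.20), the astrocyte filament Gfap -0.09 (SE 0.25) and the scaffold Homer1 0.16 (SE 0.14), whose further probes gave 0.21 and 0.69. Of the 24 genes 18 were above 0, 0 had an unadjusted p under 0.05, and the 95% interval of 12 lay within a 1.5-fold change. Without saline replicate 4 the sign of 11 of the 24 turned, among them Per1, Gfap (0.03) and Homer1 (-0.01). With saline replicate 5 and chronic replicate 8 left out too, the sign of 16 turned, then also for Drd1, Penk, Pdyn, Nr4a1 and Bdnf.

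**Figure D4:**
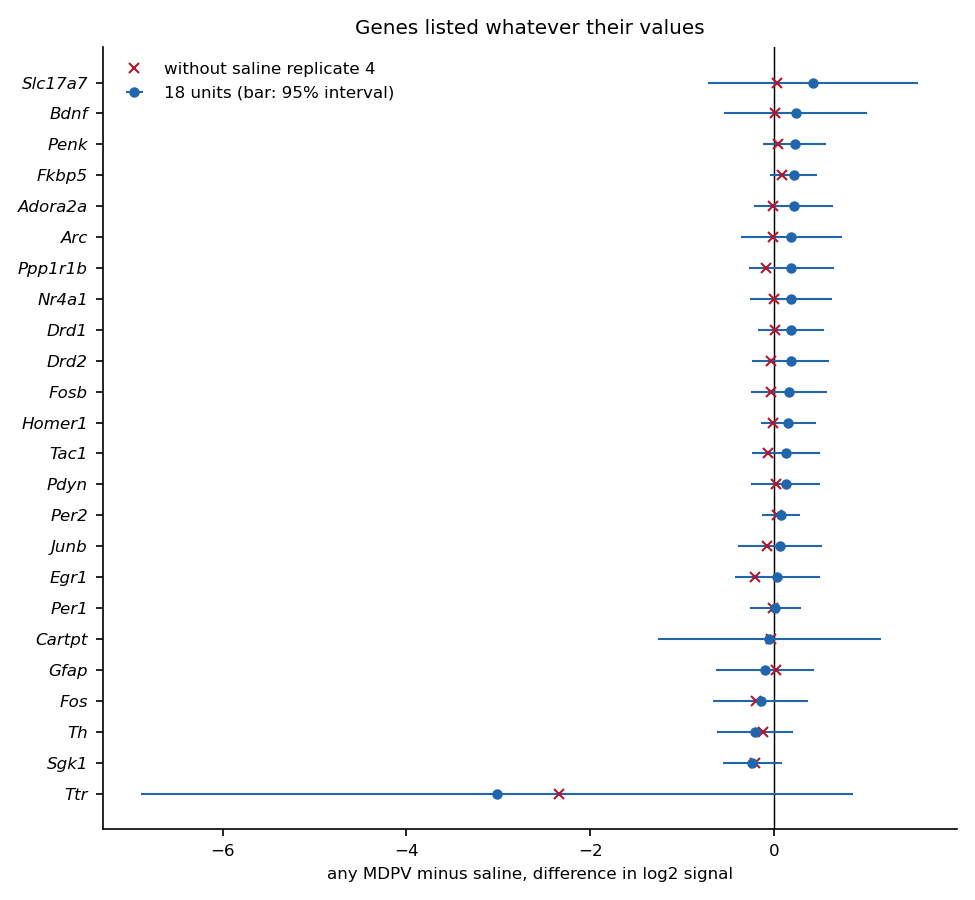
Any MDPV minus saline in log2 signal (x axis) for 24 genes listed whatever their values (rows), as the difference with its 95% interval (circle, bar) and without saline replicate 4 (cross). Every interval includes 0, and that of Ttr runs from -6.89 to 0.86.

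Among channel and synaptic genes the medians were 0.12 or less, and 54.3% of all genes were above 0. Of 31 potassium channel genes 23 were above 0, with a median of 0.12, led by Kcnh1 at 0.24 (SE 0.12) and Kcnh3 at 0.28 (SE 0.14), voltage-gated channels of the ether-a-go-go family. Without saline replicate 4 the median was 0.04. Postsynaptic genes had 19 of 24 above 0 (median 0.10), with the scaffold Dlg3 at 0.15 (SE 0.08), and 0.01 without that array. Presynaptic release genes had 19 of 25 above 0 (median 0.04, 0.02 without that array and -0.26 on slide 3). Glutamate receptor subunits (0.05, and -0.01 without that array) and GABA genes (0.00) were centred near 0, as was the median of all genes at 0.01.

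The oligodendrocyte, precursor, microglial, interferon and astrocyte lists had medians between -0.12 and -0.06, which were nearer 0 without saline replicate 4. Blood cell and endothelial lists did not follow this. Oligodendrocyte markers were lower in 15 of 16 cases (median -0.12), with the myelin gene Mbp at -0.15 (SE 0.10), and the median was -0.01 without saline replicate 4 and 0.08, -0.38 and 0.13 within slides. All 10 precursor markers were below 0 (median -0.09, and 0.01 without it). Of 15 microglial markers 14 were below 0 (median -0.09, and -0.05 without it), with the receptor P2ry13 at -0.16 (SE 0.09). Of 24 interferon and antigen presentation genes 20 were below 0 (median -0.09, and -0.03 without it), among them Bst2, an interferon-induced tether of virions, at -0.25 (SE 0.12). Astrocyte markers had a median of -0.06 (-0.02 without it). Of 8 measured blood cell transcripts 7 were below 0, with a median of -0.16 that was -0.26 in acute and -0.07 in chronic rats, -0.20 without saline replicate 4 and -0.07, -0.42 and -0.02 within slides, and the haemoglobin gene Hbb had -0.17 (SE 0.19). Their mean level ran from -3.20 to -2.45 on saline, from -3.58 to -2.75 on acute and from -3.48 to -2.54 on chronic arrays. Endothelial markers had a median of 0.00 (0.03 without saline replicate 4), with the efflux pump Abcb1a at -0.34 (SE 0.16, unadjusted p = 0.0449 by limma).

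Ribosomal protein genes were below 0 in 65 of 78 cases, with a median of -0.04 that was 0.03 in acute and -0.10 in chronic rats and -0.22, -0.06 and 0.20 within slides, so the pooled value stood for neither exposure. Respiratory chain genes had a median of 0.00 over 72 members and heat shock genes 0.00 over 23. Of the enzymes of histone and DNA methylation, Tet3, which oxidises methylcytosine, had 0.19 (SE 0.08, unadjusted p = 0.0249), and the list's median was 0.01. The antioxidant gene Prdx4 had -0.20 (SE 0.09, unadjusted p = 0.0461), with a list median of -0.04. Matrix genes had a median of -0.03.

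Over the 37 lists, 14 had a median farther than 0.1 from 0 with all 18 units and 4 without saline replicate 4, and in 13 the sign of the median turned when that array was left out. No member of any list passed the threshold after adjustment over all genes.

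**Figure D5:**
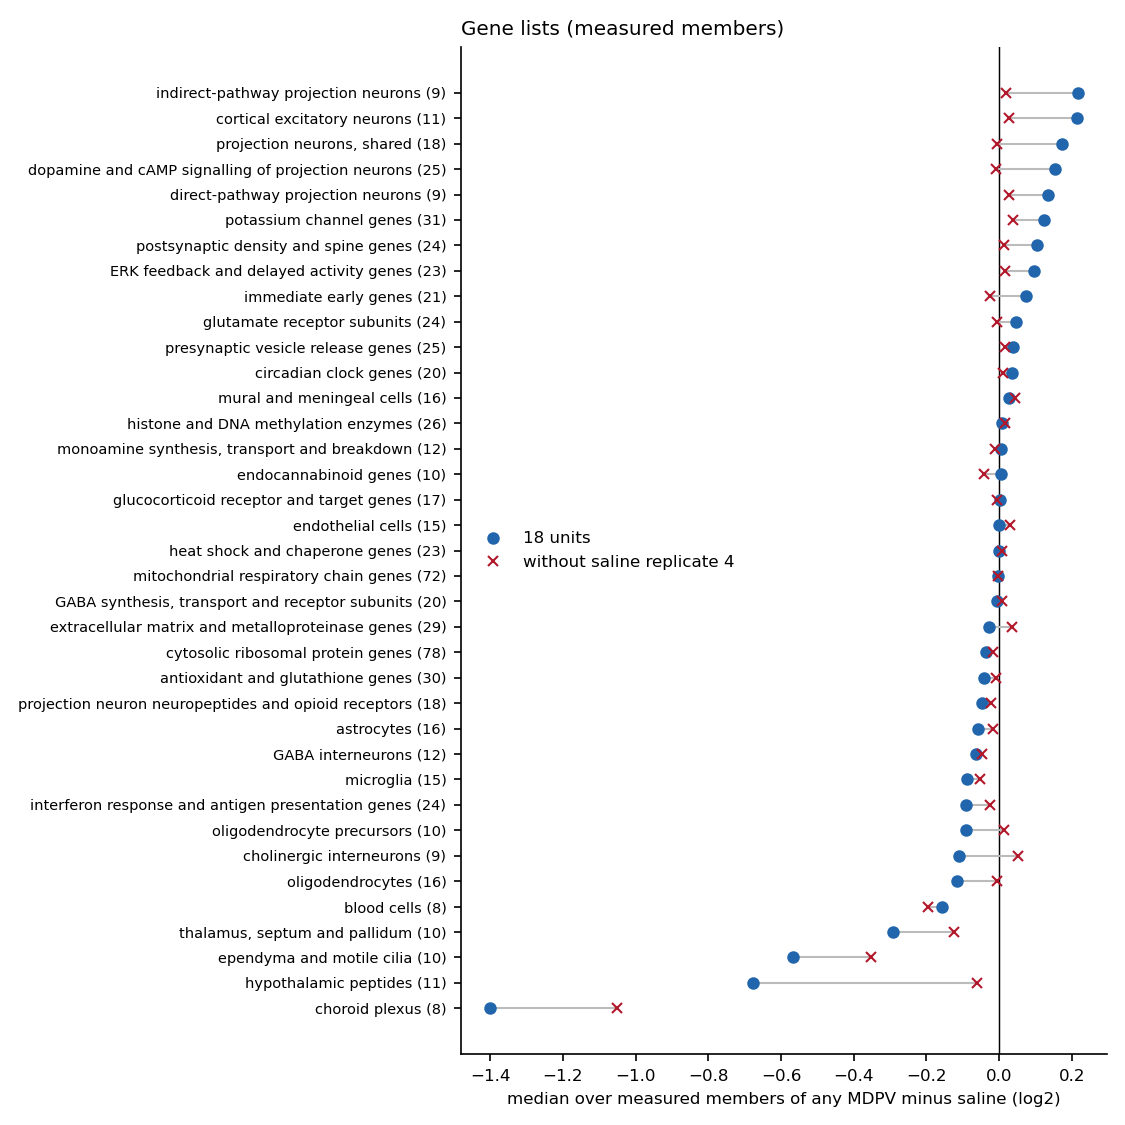
Median over measured members of the any MDPV minus saline difference in log2 signal (x axis) for 37 gene lists (rows, with the number measured), with 18 units (circles) and without saline replicate 4 (crosses). The choroid plexus list stays lowest (-1.40 and -1.05), and the hypothalamic list moves most (-0.68 to -0.06).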

How the data were processed

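Cy3-labelled total RNA was hybridised to Agilent 1-colour arrays and read with Feature Extraction 10.7, per the submitters' processing notes. Per the file headers, the processed signal is an intensity after background subtraction and detrending within the array. The mean and background intensity columns, also deposited, served the normexp alternative, and flags of 0 or 1 in other deposited columns (scores) marked spots well above background or uneven. The authors' deposited value table holds log2 values from 2.68 to 18.1, used as an alternative. Its method is not given in the sources used here, and its centring was not taken as known.

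Each processed signal was put on the log2 scale and centred on its array's 75th percentile over non-control spots. Uneven and population outlier spots were left out, and 115 missing values remained in the gene table. A probe entered if the flag for well above background was set in at least a 0.5 share of any group's arrays, as for 26259 of 45598. A gene was its brightest kept probe, which gave 20738 genes, 13455 with a symbol. Symbols came from RefSeq accessions where matched (21109 probes by systematic name, 2615 by another accession), otherwise from the files. Probe positions are those of the files (rn4) and were not placed in exons or untranslated regions, since no genome of that build was used.

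limma 3.58.1 (lmFit, contrasts, eBayes) was fitted to all 18 units with the 3 groups sharing 1 spread. The contrast was the mean of acute and chronic minus saline, with Benjamini-Hochberg adjustment over all genes. The test was checked on simulated data. The genes named are, among those with a symbol, the 12 higher and the 12 lower genes of smallest p, up to 4 members of each list by p, and 26 genes given whatever their values. The comparison, genes and lists were chosen with earlier results of these data known. Replicates are numbered in accession order. Work was done in Python 3.11.15 (pandas 2.3.3, numpy 2.4.6, matplotlib 3.10.9) and R 4.3.3 (statmod 1.5.0).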

Additional observations from a re-analysis of the deposited data

Results flagged for a closer look

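In 18 of 195 sets of 6 unit values, for the leading genes, the genes given whatever their values and the marker lists, 1 unit lay far from the rest by Dixon's test at 95%. Chance flags about 1 set in 20, and sets that share arrays or genes are not independent. Saline replicate 4 gave 6 of them: it was lowest for Fosb at -5.25 (next unit -4.33) and Nr4a1 at -0.69 (next 0.28), and highest for the marker levels of hypothalamic peptides at -1.18 (next -3.58), thalamus, septum and pallidum at -1.11 (next -2.17), oligodendrocytes at 1.33 (next 0.87) and oligodendrocyte precursors at -1.16 (next -1.49).

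Chronic replicate 4 was lowest for Drd1 at 2.21 (next 2.84), Drd2 at 2.44 (next 3.14), shared projection neuron markers at 1.69 (next 2.16) and indirect-pathway markers at -1.46 (next -0.94), and highest for GABA interneuron markers at -0.21 (next -0.45). The unit of acute replicates 4 and 6 was highest for Ptger3 at -5.74 (next -6.62) and Exo1 at -5.58 (next -6.35), towards the saline values of both genes. Acute replicate 3 was lowest for Ttr at -3.84 (next 2.01) and Bdnf at -5.99 (next -5.05), and acute replicate 2 was highest for GABA interneuron markers at -0.18 (next -0.44). Chronic replicate 3 was highest for Zswim9 at -4.41 (next -4.59), and the unit of chronic replicates 6 and 8 lowest for Fam19a3 at -6.02 (next -5.76).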

How the results depend on the processing

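Under all 37 alternatives 0 genes passed limma's adjusted p of 0.05 in the pooled comparison, and 0 in the acute, chronic and chronic minus acute comparisons wherever these were fitted (smallest pooled adjusted p = 0.472, without acute replicates 4 and 6). The count at an unadjusted p under 0.05, 433 in the pooled comparison, was 673 with the title letter as a random block, whose consensus correlation was below 0 (-0.367), 873 with array weights, 1002 with normexp and quantile normalization, 753 with no filter on dim probes (145 higher and 608 lower among 35936 genes), 184 with probes well above background on all 24 arrays (14085 genes) and 266 with slide as a block and saline replicate 4 left out. Among the fits with 1 unit left out it ran from 349 (1.68%) without saline replicate 3 to 1133 (5.46%) without saline replicate 7. It was 359 without saline replicate 4 and 306 with slide as a block. Where the cause is not given by fewer genes or units, the cause was not tested. Exposed and saline units were separated for 1 gene with 1 array per letter of digit 1, 1 with quantile normalization and 1 with the authors' values, and for 0 to 3 genes when units were left out (3 without saline replicate 7). None of the 24 leading genes changed sign under an alternative in which it was tested with all slides, which its choice by small p favours. Sizes did not hold as well: after normexp the median difference of the 12 lower genes went from -0.68 to -0.26 and that of the 12 higher genes from 0.36 to 0.25, and Ptger3 (-0.11), Fam19a3 (-0.02), Catip (-0.03), Cfap157 (-0.19) and Cd7 (0.05) had an unadjusted p over 0.05. No paired analysis was possible because the replicate numbers follow accession order and the titles number no pairs across groups. With acute and chronic rats as 1 group the count was 433. Dim probes limit the leading genes, most of which were not well above background on every array.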
